A study of Mus musculus with 4 samples.

Results

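Amino acids cross the plasma membrane and the membranes of lysosomes through carrier proteins of the solute carrier (Slc) superfamily. The members described here were all protein-coding mouse genes whose symbol starts with *Slc1a*, *Slc3a*, *Slc7a*, *Slc36a*, *Slc38a* or *Slc43a*, which gave 43 of the 21547 protein-coding gene identifiers in the count tables. They comprise 7 *Slc1a*, 2 *Slc3a*, 16 *Slc7a*, 4 *Slc36a*, 11 *Slc38a* and 3 *Slc43a* genes. The name alone chose them, so the list also holds *Slc7a6os*, a gene named for its place on the strand opposite *Slc7a6* and not a transporter, and *Slc43a3*, known for carrying purine nucleobases.

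The data are single-cell libraries (Smart-seq2, a plate method that reads whole transcripts of 1 sorted cell per well) of the ear dermis of wild-type, female, adult C57Bl/6 mice, with no treatment or genetic change. The sort took CD31+/CD45-/Lyve1- cells, the gate for blood vascular endothelial cells (BECs), onto 4 plates with 384 wells apiece, and 2 plates (A and B) make up a replicate. The labels give an age of 12 to 26 weeks, which differs from the range in the paper, and pools of 6 mice, without saying whether the replicates are separate pools. The plates held 31864976 to 74739095 reads counted on genes.

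Wells counted as endothelial when 2 or more of the genes *Kdr*, *Cdh5* and *Pecam1* had a read and the lymphatic genes *Prox1* and *Lyve1*, the leukocyte gene *Ptprc* and the mural genes *Kcnj8* and *Pdgfrb* were each under 100 CPM (counts per 1000000 reads of the well). Of 768 wells in each replicate, 338 were kept in replicate 1 (median 142614.5 reads) and 363 in replicate 2 (median 92974 reads). A limit of 10 CPM would have left 18 and 229 wells. The kept wells were not all clean. A cluster of 145 of them (41 and 104 in replicates 1 and 2) was led by the lymphatic gene *Mmrn1* and keratin genes and was also higher in 6 of 11 mural markers, and in replicate 2 the kept wells summed to 969 CPM of 7 lymphatic markers against 66.1 CPM in replicate 1, and to 124 against 6.08 CPM of 7 leukocyte markers.

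A large group of these carriers works as pairs. *Slc3a2* encodes the heavy chain 4F2hc (CD98), which brings a light chain of the *Slc7a* family to the cell surface, and *Slc3a1* encodes the corresponding heavy chain of kidney and gut. The light chains set what is carried, *Slc7a5* (LAT1) large neutral amino acids, *Slc7a6* and *Slc7a7* (y+LAT2 and y+LAT1) cationic against neutral amino acids, and *Slc7a11* (xCT) cystine against glutamate. *Slc7a1* to *Slc7a3* encode cationic amino acid transporters for arginine and lysine, the *Slc1a* family holds the glutamate transporters and the neutral exchangers ASCT1 (*Slc1a4*) and ASCT2 (*Slc1a5*), and the *Slc38a* family holds sodium-coupled carriers of glutamine and small neutral amino acids.

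In dermal BECs, 11 of the 43 members were expressed, by which is meant a mean of at least 10 CPM and a read in at least 10% of kept wells in both replicates. Ordered by level per length (mean CPM per kb of exon), they were *Slc3a2*, *Slc43a3*, *Slc38a2*, *Slc1a5*, *Slc38a10*, *Slc7a7*, *Slc7a6*, *Slc38a6*, *Slc7a6os*, *Slc7a1* and *Slc38a9*. One heavy chain stood far above the rest. *Slc3a2* was at 226 CPM per kb in replicate 1 and 165 CPM per kb in replicate 2, which made up 54.4% and 52.8% of the summed level per kb of all 43 members.

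**Figure D1:**
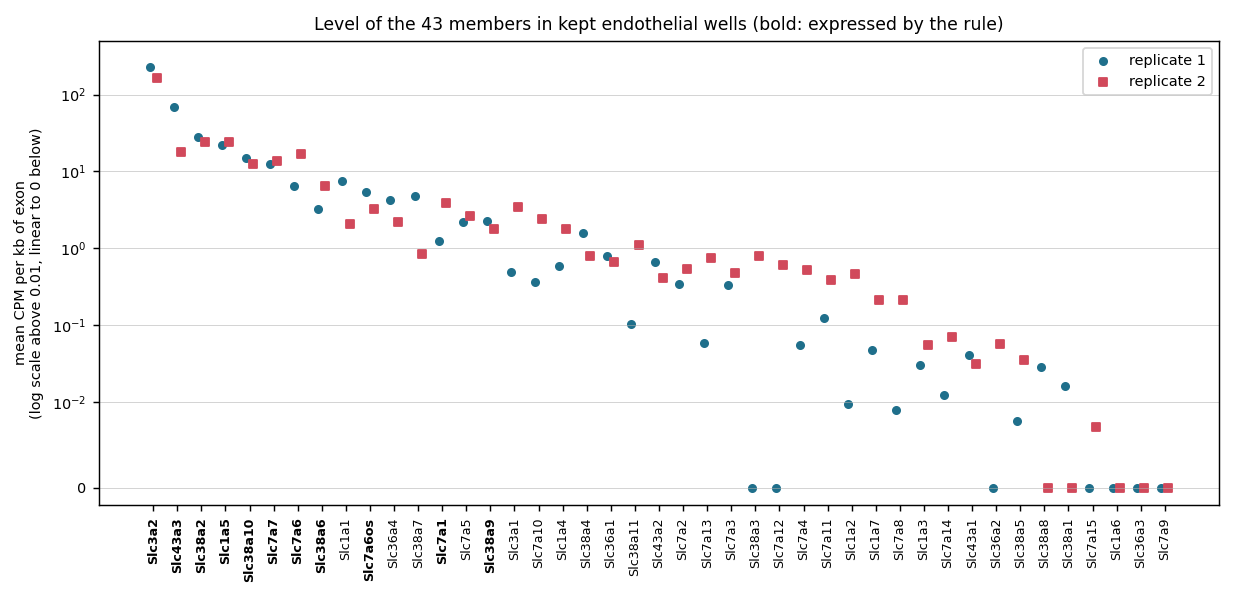
Mean level of each of the 43 members in kept endothelial wells, as CPM per kb of exon (log axis above 0.01, linear below), for replicate 1 (circles) and replicate 2 (squares), with expressed members in bold. *Slc3a2* lay highest in both replicates, at 226 and 165 CPM per kb, and 3 members at the right had no read.

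Among the neighbours in this order the replicates overlapped in most places. *Slc43a3* was at 68.1 and 17.7 CPM per kb, a range that spans those of *Slc38a2* (28.2 and 23.8) and *Slc1a5* (22.2 and 23.8). *Slc38a10* had 15.2 and 12.6 CPM per kb, *Slc7a7* 12.6 and 13.5 and *Slc7a6* 6.43 and 17.0, so that these 3 could not be ordered. The lowest of the 11 by this measure, *Slc38a9*, had 2.28 and 1.81 CPM per kb. The lysosomal protein it encodes reports arginine to the mTORC1 growth pathway.

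*Slc3a2* (ENSMUSG00000010095, mm10 chromosome 19, 8706882 to 8723369, minus strand) averaged 797 CPM over the wells of replicate 1 and 581 CPM over those of replicate 2 (689 ± 152 CPM, SD, n = 2). A read was counted in 336 of 338 wells of replicate 1 (99.4%, exact binomial 95% interval 97.9 to 99.9) and in 262 of 363 wells of replicate 2 (72.2%, 67.3 to 76.7). After every well was thinned to 20000 reads, which left out 1 and 69 wells, 82.2% and 61.2% held a read, and the share stayed higher in replicate 1. Single wells reached 3619 and 6316 CPM. As it is the highest member, the promoter that RefSeq lists for it (GRCm38.p6, chr19:8713848-8714147, minus strand, 250 bases before to 50 after the RefSeq start) is given in full, 5′ to 3′. This start lies inside the gene bounds above, downstream of the outermost annotated start at 8723369.
Slc3a2: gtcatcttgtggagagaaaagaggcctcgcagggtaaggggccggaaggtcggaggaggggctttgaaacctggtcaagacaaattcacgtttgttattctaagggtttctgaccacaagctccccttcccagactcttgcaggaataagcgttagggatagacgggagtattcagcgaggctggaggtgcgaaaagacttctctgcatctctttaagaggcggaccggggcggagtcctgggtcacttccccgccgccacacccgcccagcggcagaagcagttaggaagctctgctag

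The light chains of *Slc3a2* were far lower than their heavy chain per kb of exon, with 6.43 and 17.0 CPM per kb for *Slc7a6*, 12.6 and 13.5 for *Slc7a7* and 2.24 and 2.67 for *Slc7a5*. As mean CPM over wells, *Slc7a6* had 29.4 and 77.9 CPM and *Slc7a7* 41.8 and 44.8 CPM, and both were expressed. *Slc7a5*, with 8.29 and 9.89 CPM and a read in 12.7% and 4.96% of wells, fell short of the limit. *Slc7a11* had only 1.74 and 5.40 CPM although 15.4% and 18.7% of wells held a read, *Slc7a10* 0.767 and 5.09 CPM and *Slc7a8* 0.0457 and 1.07 CPM. In replicate 1, 136 of 338 wells had a read of *Slc3a2* and of none of these 6 light chains. In replicate 2 there were 129 such wells of 363, and their group of 199 wells without a light chain read had a median of 53558 reads against 152097 reads in the 164 wells with one. The other heavy chain, *Slc3a1*, had 1.13 and 7.75 CPM, and its partner *Slc7a9* had no read.

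The replicates did not measure all members alike. *Slc43a3* was 3.85 times higher in replicate 1 (304 against 79.1 CPM), while *Slc7a1* was 3.13 times (14.2 against 44.5 CPM) and *Slc7a6* 2.65 times higher in replicate 2. For the other 8 expressed members the higher replicate was at most 1.96 times the lower. Over the wells with a class name alone, a choice made after the data were seen, the ratios were 2.38 for *Slc43a3* (296 and 125 CPM), 3.94 for *Slc7a1* and 5.90 for *Slc7a6* (25.1 and 148 CPM), and that of *Slc38a9* was 2.70 (41.8 and 15.5 CPM, higher in replicate 1). There the levels of replicate 2 were over 1.5 times those in all kept wells for *Slc43a3*, *Slc38a2* (328 CPM), *Slc1a5* (152 CPM) and *Slc7a6*, while in replicate 1 the ratio to all kept wells was between 0.839 and 1.13 for the 11 expressed members. Beside *Slc43a3*, the 13 capillary markers summed to 11746 CPM in kept wells of replicate 1 and 2620 CPM in those of replicate 2, which held 113 and 22 capillary-like wells. Their part in the difference was not tested. For *Slc7a6* the level of replicate 2 came mostly from plate B (119 CPM, against 34.5 CPM on plate A), with 1 well at 9446 CPM.

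*Slc38a2* (SNAT2), a sodium-coupled carrier of small neutral amino acids, had 249 and 210 CPM and a read in 88.8% (84.9 to 91.9) and 47.1% (41.9 to 52.4) of wells. *Slc1a5*, the glutamine exchanger ASCT2, had nearly the same mean in both replicates (92.5 and 99.4 CPM) but a read in 59.8% (54.3 to 65.0) of wells in replicate 1 and 26.4% (22.0 to 31.3) in replicate 2. Its level was concentrated in few wells, since the median over all wells was 5.93 CPM in replicate 1 and 0 in replicate 2, and the highest wells held 2007 and 2767 CPM. *Slc38a6* showed the opposite picture. At 25.6 and 50.3 CPM it was low, yet 64.8% and 44.9% of wells held a read, a share above that of *Slc1a5* in both replicates. On thinned reads the 2 genes were within 1 percentage point in replicate 1 (24.6% and 24.9%) and the order stood in replicate 2 only (32.0% and 15.3%).

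**Figure D2:**
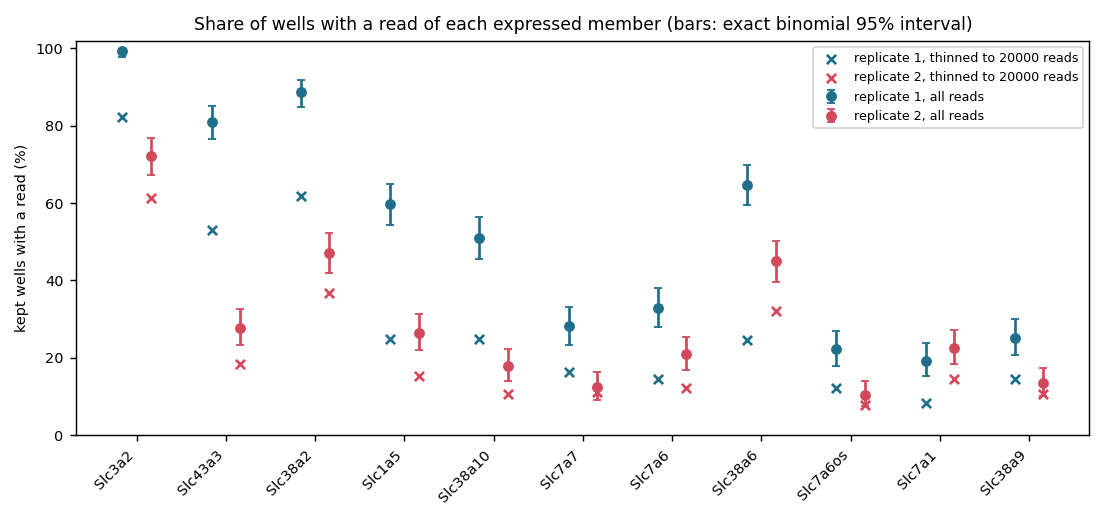
Share of kept wells with at least 1 read of each expressed member (y axis, %), with exact binomial 95% intervals, in replicates 1 and 2, and the same after thinning to 20000 reads (crosses). All 11 members but *Slc7a1* had the higher share in replicate 1, whose wells were sequenced more deeply, and on thinned reads *Slc38a6* was also higher in replicate 2.

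*Slc38a10* had 97.3 and 80.9 CPM, *Slc38a9* 38.1 and 30.2 CPM and *Slc7a6os* 23.1 and 13.7 CPM. *Slc7a6os* ends 2010 bases from *Slc7a6* on chromosome 8 (106200717 to 106210935 and 106168857 to 106198706), on the other strand, so the annotated genes do not overlap. Whether the counting used strand is not given in the sources used here.

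Of the 32 members that were not expressed, 29 had at least 1 read in a kept well. *Slc1a1*, which encodes the glutamate transporter EAAT3, had 61.9 and 17.2 CPM and missed only through its share of 9.64% in replicate 2. *Slc36a4* (27.6 and 14.2 CPM) missed likewise with 9.09%, and the lysosomal glutamine carrier gene *Slc38a7* had 20.1 CPM in replicate 1 but 3.51 CPM in replicate 2. *Slc7a2*, the cationic transporter CAT2, had a read in 23.7% and 19.6% of wells at a mean of just 3.15 and 4.98 CPM. The other 24, besides *Slc7a5*, stayed at or under 6.83 CPM in replicate 1 and 7.75 CPM in replicate 2: *Slc1a2*, *Slc1a3*, *Slc1a4* and *Slc1a7*, *Slc3a1*, *Slc7a3*, *Slc7a4*, *Slc7a8*, *Slc7a10* to *Slc7a15*, *Slc36a1* and *Slc36a2*, *Slc38a1*, *Slc38a3*, *Slc38a4*, *Slc38a5*, *Slc38a8* and *Slc38a11*, and *Slc43a1* and *Slc43a2*. *Slc1a6*, *Slc7a9* and *Slc36a3* had no read, which, taken as under 3 wells of the total, allows a share of wells with a read of up to 0.888% in replicate 1 and 0.826% in replicate 2 (the exact binomial 95% interval reaches 1.09% and 1.01%). Intervals and limits of this kind cover counting error only.

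To follow the members from artery to vein, the kept wells were clustered on variable genes that excluded all members, and clusters were named from marker genes. This gave 25 and 23 artery-like, 113 and 22 capillary-like and 110 and 72 vein-like wells in replicates 1 and 2, and left 90 and 246 wells without a name. Artery markers (15 genes, among them *Gja4*) summed to 5531 and 5575 CPM in artery-like wells, to at most 1452 CPM in capillary-like and vein-like wells and to 1694 and 1026 CPM in the wells without a name. Vein markers summed to 10133 and 11880 CPM in vein-like wells and capillary markers to 18933 and 8837 CPM in capillary-like wells, with 12242 CPM of the latter also in the artery-like wells of replicate 1. Reads were summed per class and replicate and the 6 sums compared with the quasi-likelihood test of edgeR, with the replicate as a block. The levels below are CPM of these sums after TMM normalization, and a fold change is on the log2 scale with its standard error.

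Enough reads for the test (at least 10 in at least 2 sums) were present for 14610 genes, among them 22 members and all 11 expressed ones. No member passed an adjusted p of 0.05 (Benjamini-Hochberg, all genes) in any of the 5 class comparisons. Few other genes did. In simulated sums with the median spread measured here, artery-like wells against the others called 1 of 50 genes changed 16-fold. Any difference between the classes was called for 0.0616% of all genes tested, artery-like against vein-like for 0%, and the artery-like, capillary-like and vein-like class against the mean of the others for 0.0479%, 0.00684% and 0.0274%. At an unadjusted p under 0.05 edgeR gave 2, 3, 3, 1 and 2 of the 22 members in these 5 comparisons, beside 4.52%, 6.15%, 5.2%, 3.66% and 6.13% of all genes. DESeq2, which gave an adjusted p to 18 members for any difference and to 19 in the others, called 0, 1, 2, 0 and 1 of them, beside 1.06%, 3.31%, 3.9%, 1.43% and 1.92% of all genes with one. The class with the highest level was the same in both replicates for 3 of 11 expressed members (27.3%) and for 37.4% of all genes tested. The median log2 fold change of the 22 members was -0.72 for artery-like against vein-like wells and -0.36, -0.05 and 1.32 for the artery-like, capillary-like and vein-like class against the others, where all genes had -0.32, -0.22, -0.09 and 0.34.

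**Figure D3:**
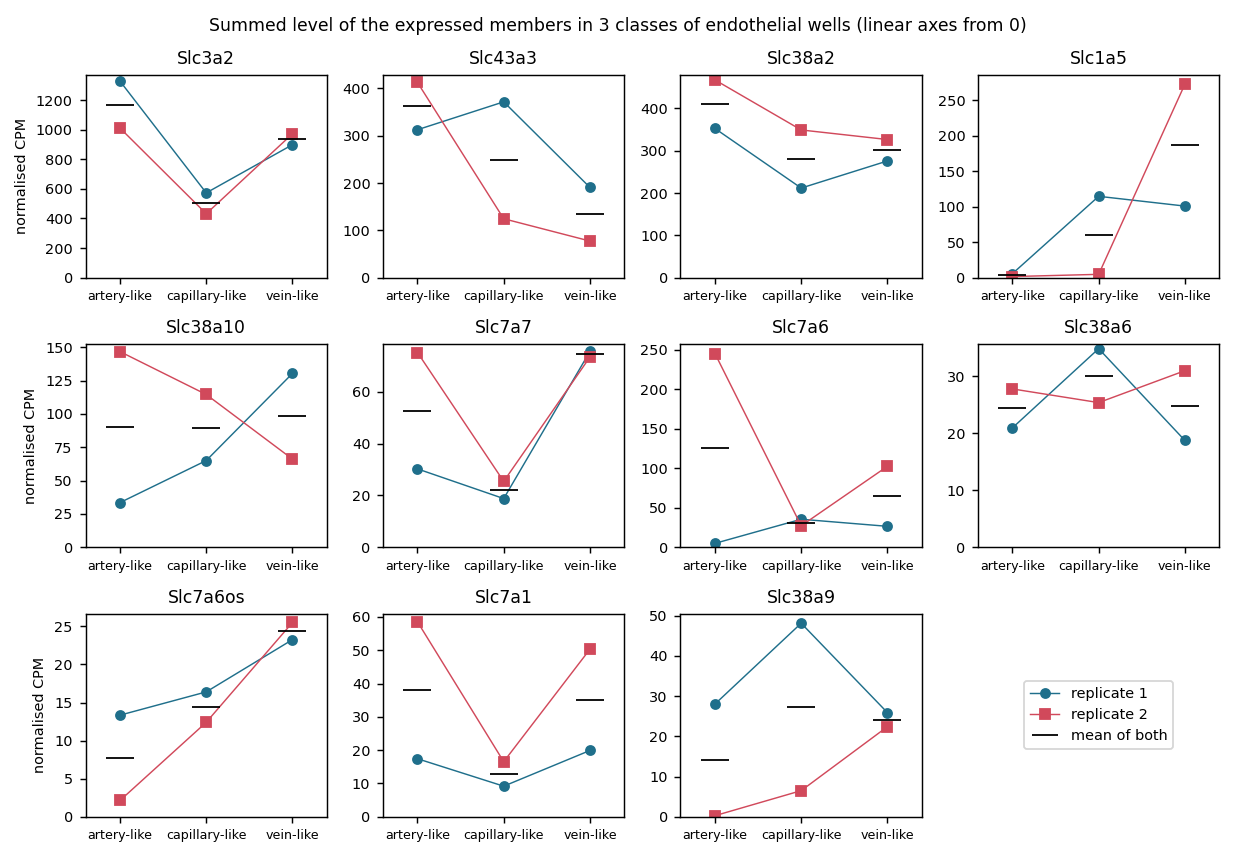
Normalised CPM of the 11 expressed members in summed artery-like, capillary-like and vein-like wells, for replicate 1 (circles), replicate 2 (squares) and their mean (black bars). *Slc3a2* was lowest in capillary-like wells in both replicates and *Slc1a5* lay near 0 in artery-like wells, whereas the order of the classes for *Slc38a10* was reversed between the replicates.

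*Slc3a2* was lowest in capillary-like wells in both replicates. Artery-like wells had 1327 and 1011 CPM, vein-like wells 898 and 972 CPM and capillary-like wells 573 and 432 CPM, so both values of the capillary-like class lay under all values of the other classes. Capillary-like wells differed from the mean of the others by a log2 fold change of -1.07 (SE 0.32, edgeR adjusted p = 0.983), with -0.86 in replicate 1 and -1.30 in replicate 2. The value was -0.14 (SE 0.93) with the limit of 10 CPM, which left 4 capillary-like wells in replicate 1. It was -0.27 (SE 0.41) with all 3 endothelial genes required and -0.47 (SE 0.18) with classes from marker scores. Both artery-like values lay above both vein-like values, by a log2 fold change that was smaller than its error (0.30, SE 0.35). The log2 ratio was 0.47 in replicate 1 and -0.08 in replicate 2, where its scaling differed from that of the CPM above.

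*Slc1a5* was nearly missing from artery-like wells. They held 5.72 and 1.60 CPM (21 and 6 reads in the sums), whereas vein-like wells held 101 and 273 CPM. Artery-like against vein-like wells gave a log2 fold change of -6.46 (SE 1.66, edgeR adjusted p = 0.742), with -4.19 and -7.38 in the single replicates, and it passed the threshold with DESeq2 (-6.21, adjusted p = 0.00173) and without the filter on low counts, in 2 of the 13 alternatives that gave a test. The fold change was smaller with classes taken from marker scores (-1.33), with a limit of 300 CPM for the non-endothelial genes (-1.41) and with reads of all 3 endothelial genes required (-3.51). Capillary-like wells could not be placed. They had 115 CPM in replicate 1, above the vein-like wells, and 4.72 CPM from 8 reads in replicate 2, where only 22 wells were capillary-like. Vein-like wells against the mean of the others stood at 4.66 (SE 1.32, edgeR adjusted p = 0.635), and between 0.83 and 6.67 over the alternatives.

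*Slc43a3* leaned the other way. Vein-like wells were lowest in both replicates, with 191 and 77.5 CPM, against 313 and 413 CPM in artery-like wells. Capillary-like wells were highest in replicate 1 (372 CPM) and between the others in replicate 2 (125 CPM). The log2 fold change of artery-like against vein-like wells was 1.67 (SE 0.67, edgeR adjusted p = 0.764), with 0.62 and 2.28 in the single replicates. The sign turned on plate A alone (-1.82, SE 1.52), with 5 and 7 artery-like wells in replicates 1 and 2. It also turned with the limit of 10 CPM (-0.030, SE 2.06), which left 1 artery-like and 3 vein-like wells in replicate 1.

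*Slc38a2* passed no test, although artery-like wells were highest in each replicate, with 353 and 467 CPM in artery-like, 212 and 349 CPM in capillary-like and 276 and 326 CPM in vein-like wells. *Slc7a7* was lowest in capillary-like wells of both replicates (18.8 and 25.4 CPM), with 75.5 and 73.4 CPM in vein-like wells and 30.2 and 75.1 CPM in artery-like wells. *Slc7a1*, too, was lowest there, with 9.18 and 16.5 CPM, against 19.9 and 50.3 CPM in vein-like and 17.4 and 58.5 CPM in artery-like wells, and it passed no test. *Slc7a6* ranged from 4.90 to 245 CPM within the artery-like class, and had 35.4 and 27.2 CPM in capillary-like and 26.5 and 103 CPM in vein-like wells.

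The remaining *Slc38a* genes had no order that both replicates shared. *Slc38a10* had 33.5 CPM in artery-like, 65.0 CPM in capillary-like and 130.4 CPM in vein-like wells of replicate 1, and the reverse order in replicate 2 (147, 115 and 66.1 CPM). *Slc38a9* had 28.0 and 0.267 CPM in artery-like, 48.1 and 6.50 CPM in capillary-like and 25.9 and 22.4 CPM in vein-like wells. *Slc38a6* stayed between 18.7 and 34.9 CPM in all 6 sums. *Slc7a6os*, not a carrier, was highest in vein-like wells in both replicates (23.3 and 25.5 CPM) and lowest in artery-like wells (13.3 and 2.14 CPM). Of the partners that were not expressed, *Slc7a5* had 98.6 CPM in the capillary-like wells of replicate 2 (167 reads) and between 0.267 and 9.60 CPM in the other 5 sums.

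Other markers moved with the classes. The 34 genes of a dissociation response, which includes immediate early genes such as *Fos*, summed to 35237 and 29450 CPM in vein-like wells, 19315 and 19615 CPM in artery-like wells and 16169 and 10775 CPM in capillary-like wells, the class in which *Slc3a2*, *Slc7a7* and *Slc7a1* were lowest. Mural markers summed to 1665 and 567 CPM in artery-like, 1621 and 464 CPM in capillary-like and 969 and 408 CPM in vein-like wells, and fibroblast markers to 899 and 171, 353 and 360.4, and 214 and 63.4 CPM. Their part in the levels of the members was not tested.

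The same plates held wells with the genes of mural or lymphatic cells, against which the kept BECs were compared. Mural wells (8 and 38, with at least 300 CPM of *Pdgfrb* or *Kcnj8* and under 100 CPM of *Pecam1*) and lymphatic wells (11 and 123, with at least 100 CPM of *Prox1* or *Lyve1* and a read of 2 of *Mmrn1*, *Ccl21a* and *Flt4*) were summed per replicate and compared with the kept BECs in 1 fit over 17494 genes. The 11 mural markers, of which *Pdgfrb* and *Kcnj8* chose or barred the wells, summed to 20520 and 15682 CPM in mural wells, against 1370 and 577 CPM in BECs, and 8 fibroblast markers to 3063 and 4947 CPM, against 443 and 727 CPM. Endothelial genes were present in the mural wells too. The 15 vein markers summed to 2752 and 2586 CPM there (5496 and 5086 CPM in BECs), the 13 capillary markers to 4869.6 and 766 CPM (11746 and 2620 CPM in BECs) and the 15 artery markers to 913 and 851 CPM (1758 and 1360 CPM in BECs), and their part in the differences from mural wells was not tested. The 7 lymphatic markers, some of which chose the wells, summed to 6247 and 10196 CPM in lymphatic wells. Both comparisons share the BEC sums, and in their fit a gene's own spread between replicates had no weight in the quasi-likelihood dispersion. In a sum over wells alone, fewer cells with a transcript and less of it per cell cannot be told apart, so the share of wells with a read is given for the members called.

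Between BECs and mural wells, 4 of the 30 members tested passed the threshold (13.3%), where 1.94% of all genes did. *Slc3a2* and *Slc43a3* were higher in BECs (1.01% of all genes were called in this direction) and *Slc7a2* and *Slc38a11* were lower (0.932%). At an unadjusted p under 0.05 there were 9 members, with 14.1% of all genes. The median log2 fold change was 0.95 over the 30 members and 0.84 over all genes. All 4 calls were lost in the fit without the replicate block and with limma on mean CPM, and a fit on plate A kept *Slc43a3* alone. With the limit of 10 CPM for the non-endothelial genes *Slc3a2* alone remained, and on plate B 0 members did. Without the filter on low counts *Slc38a11* missed the threshold (edgeR adjusted p = 0.0586).

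*Slc43a3* had 292 and 97.7 CPM in BECs and 6.48 and 15.8 CPM in mural wells. All values in BECs lay above those in mural wells, with a log2 fold change of 4.18 (SE 0.98, edgeR adjusted p = 0.00205), of 5.70 in replicate 1 and of 2.72 in replicate 2. A read of it was counted in 7 of 8 (87.5%) and 6 of 38 (15.8%) mural wells and in 81.1% and 27.8% of BECs, so that in replicate 1 the share was no lower in mural wells. *Slc3a2* had 813 and 750.0 CPM in BECs and 123 and 191 CPM in mural wells, a log2 fold change of 2.38 (SE 0.59, edgeR adjusted p = 0.00531). DESeq2 gave 2.08 for it, with an adjusted p of 0.261, and called the other 3 among 25 members, with 8.36% of all genes. A read of it was present in 8 of 8 and 21 of 38 mural wells, and in 99.4% and 72.2% of BECs. On thinned reads the share was 50.0% and 36.8% in mural wells and 82.2% and 61.2% in BECs.

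*Slc7a2*, for arginine and other cationic amino acids, had 3.22 and 3.85 CPM in BECs and 52.4 and 448 CPM in mural wells (log2 fold change -5.51, SE 1.46, edgeR adjusted p = 0.0109), and a read in 3 of 8 and 21 of 38 mural wells, against 23.7% and 19.6% of BECs. Without the kept wells that had no class name, an alternative chosen after the data were seen, its adjusted p was 0.0727. *Slc38a11*, an orphan member of its family, had 0.305 and 6.05 CPM in BECs and 171 and 187 CPM in mural wells (log2 fold change -6.57, SE 1.84, edgeR adjusted p = 0.0225). Those reads came from 2 of 8 and 7 of 38 mural wells, and 4.73% and 3.86% of BECs held a read. The fold change was -3.45 on plate A alone, -9.61 on plate B alone, -9.43 with all 3 endothelial genes required and -9.93 with named wells alone. As a mean over wells, BECs of replicate 2 had 9.31 CPM on plate A and 0.550 CPM on plate B, and the highest well held 1389 CPM. Wells with a class name had 0.386 and 0.082 CPM in replicates 1 and 2. *Slc7a1*, a cationic transporter gene like *Slc7a2*, was at 18.4 and 52.0 CPM in BECs and at 0 and 49.9 CPM in mural wells.

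**Figure D4:**
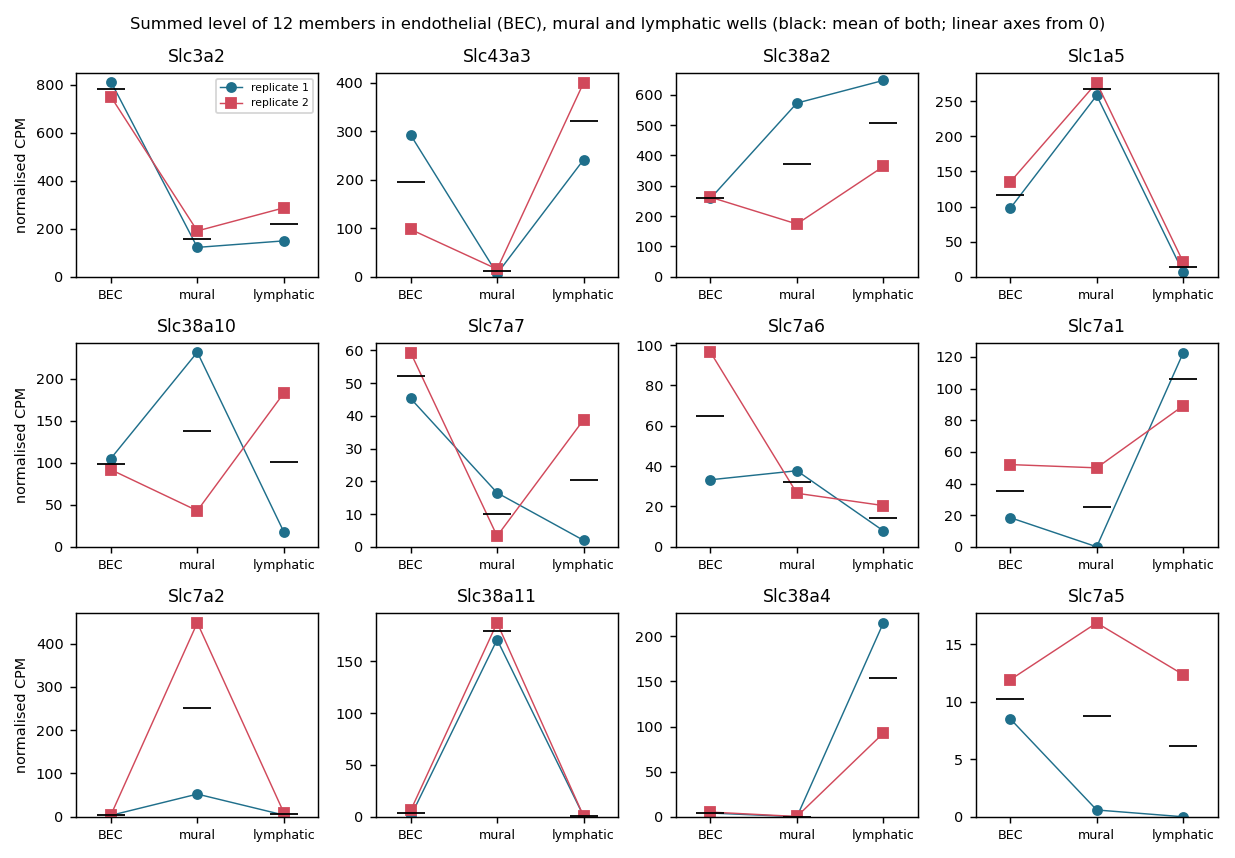
Normalised CPM of 12 members in summed endothelial (BEC), mural and lymphatic wells, for replicate 1 (circles), replicate 2 (squares) and their mean (black bars). *Slc3a2* was highest in BECs, *Slc7a2* and *Slc38a11* in mural wells and *Slc38a4* in lymphatic wells, in both replicates.

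Among the members that were not called, *Slc1a5* had 258 and 276 CPM in mural wells against 97.4 and 135 CPM in BECs, without overlap but with a log2 fold change of -1.25 (SE 0.95, edgeR adjusted p = 0.595). *Slc38a2* had 258 and 262 CPM in BECs and 572 and 174 CPM in mural wells. *Slc7a7* was at 45.3 and 59.3 CPM in BECs and 16.5 and 3.28 CPM in mural wells.

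Against lymphatic wells, 0 of the 30 members passed, with 1.07% of all genes called. By edgeR 5 members had an unadjusted p under 0.05, with 9.24% of all genes, and DESeq2 called 1 of 24, with 3.2% of all genes. The median log2 fold change was -0.10 over the members and 0.56 over all genes. *Slc3a2* lay higher in BECs again, with 149.6 and 287 CPM in lymphatic wells, and missed the threshold (log2 fold change 1.93, SE 0.59, edgeR adjusted p = 0.0841). *Slc1a5* was at 6.59 and 21.1 CPM in lymphatic wells against 97.4 and 135 CPM in BECs (3.18, SE 1.03, edgeR adjusted p = 0.138). *Slc38a4*, a carrier of neutral and cationic amino acids, went the other way with 215 and 92.6 CPM in lymphatic wells and 4.16 and 5.19 CPM in BECs (-5.02, SE 1.76, edgeR adjusted p = 0.231), and it was the member that DESeq2 called (adjusted p = 0.00299). A read of it was counted in 4 of 11 and 15 of 123 lymphatic wells and in 3.25% and 2.48% of BECs. As a mean over wells it had 6.83 and 3.37 CPM in kept wells, but 0.251 and 0.281 CPM in those with a class name. With the named wells alone, an alternative chosen after the data were seen, the fold change was -9.87. *Slc43a3* was not set apart from lymphatic endothelium, which held 241 and 400 CPM.

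**Figure D5:**
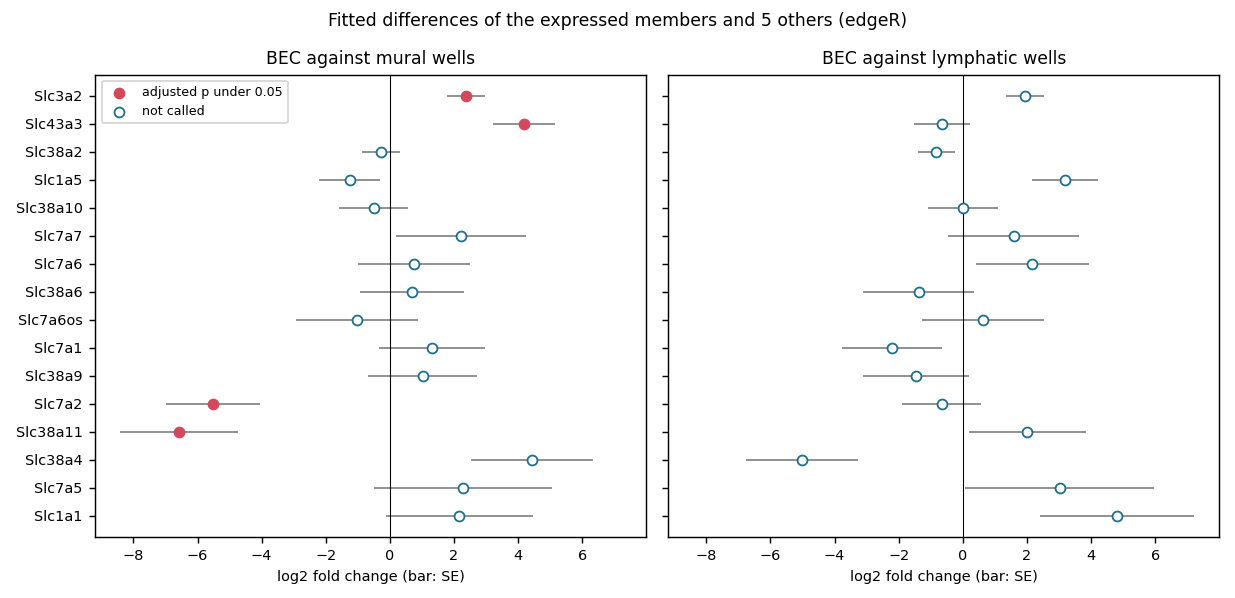
Log2 fold changes (x axis, bars are standard errors) of the 11 expressed members and 5 others for BECs against mural wells (left) and against lymphatic wells (right), with filled points for an adjusted p under 0.05. *Slc3a2* and *Slc43a3* were called higher and *Slc7a2* and *Slc38a11* lower in BECs than in mural wells, and no member was called against lymphatic wells.

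Amino acid carriers are induced, when amino acids run short, by the transcription factor ATF4, which binds C/EBP-ATF response elements. Of 26 genes of this amino acid response, 22 were tested between classes and 26 between kinds of wells, and 0 passed in either direction (edgeR), with 1, 1, 1, 3 and 1 at an unadjusted p under 0.05 in the class comparisons. The 3 are 13.6% for capillary-like wells, with 3.66% of all genes, and each 1 is 4.55%, with 4.52% to 6.15% of all genes. Against mural and lymphatic wells there were 3 (11.5%, with 14.1% of all genes) and 5 (19.2%, with 9.24%). Its highest genes by level per kb were *Atf3*, with 701 and 718 CPM in BECs, and *Atf4*, with 451 and 323 CPM. *Atf3* had 1220 and 1378 CPM in vein-like wells and 164 to 372 CPM in the other classes, and missed the threshold there (vein-like against the mean of the others 2.45, SE 0.33, edgeR adjusted p = 0.0552). It belongs to the dissociation response list as well. The median log2 fold change of the amino acid response was -0.16 in artery-like, -1.11 in capillary-like and 1.97 in vein-like wells against the others, with -0.22, -0.09 and 0.34 over all genes tested. Between artery-like and vein-like wells it was -1.47, with -0.32 over all genes. Against mural wells it was 0.05 and against lymphatic wells 0.80, with 0.84 and 0.56 over all genes. *Asns*, asparagine synthetase, had 65.8 and 66.7 CPM in BECs.

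The letters of that element, TGATGNAAN on either strand, were looked for in the RefSeq promoters (GRCm38.p6, 300 bases each) of the 32 members with an entry. They were found in 3 members (9.38%), *Slc1a4*, *Slc7a7* and *Slc7a11*, and in 4.50% of all genes with a promoter entry. Of the 9 expressed members with an entry, *Slc7a7* was the one that held it. The stretches, whose link to the response genes above was not tested, are shown 5′ to 3′ on the gene's strand, with matches in capitals. They lie at chr3:50443623-50443709 (*Slc7a11*), chr11:20332680-20332748 (*Slc1a4*), chr14:54418047-54418115 and chr14:54417907-54417975 (*Slc7a7*), all on the minus strand. Both *Slc7a7* stretches lie upstream of the outermost start in the annotation used for the counts' symbols, at 54417780, and their names refer to the start RefSeq lists.
Slc7a11: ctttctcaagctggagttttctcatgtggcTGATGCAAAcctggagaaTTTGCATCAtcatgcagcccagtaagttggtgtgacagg
Slc1a4: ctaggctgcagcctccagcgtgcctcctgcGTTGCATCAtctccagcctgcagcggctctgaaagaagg
Slc7a7, upstream: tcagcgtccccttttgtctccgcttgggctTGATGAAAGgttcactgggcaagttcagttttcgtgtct
Slc7a7, at the RefSeq start: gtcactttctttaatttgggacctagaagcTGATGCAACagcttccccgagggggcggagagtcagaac
In BECs these 3 members had different mean levels over wells, with 1.74 and 5.40 CPM for *Slc7a11*, 2.32 and 7.11 CPM for *Slc1a4* and 41.8 and 44.8 CPM for *Slc7a7*. The E-box CACGTG, the core of sites for MYC and for the lysosomal regulator TFEB, was in the promoters of 7 of the 32 members (21.9%), 0 of them among the 9 expressed ones, and in 8.09% of all genes. A match of letters is a description and not a bound site.

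Genes around the carriers were taken from 3 further lists. Of 39 genes of nutrient sensing, the Rag and mTORC1 machinery that reads lysosomal amino acids, 37 were tested between classes and 39 between kinds of wells, and 0 passed by edgeR in any comparison, with 1 or 2 at an unadjusted p under 0.05 in each. Between classes these are 2.7% or 5.41%, with 3.66% to 6.15% of all genes. Against mural and against lymphatic wells there was 1 (2.56%), with 14.1% and 9.24% of all genes. Its median log2 fold change was 0.03 against mural and 0.08 against lymphatic wells, where all genes had 0.84 and 0.56. *Lamtor5* (88.2 and 98.5 CPM in BECs) and the arginine sensor gene *Castor1* (136 and 66.2 CPM) were highest per kb. Of 33 other amino acid transporters, 1 of the 16 tested passed in the class comparisons, *Slc6a6*, the taurine transporter, in comparisons that called 0.0616% (any difference) and 0.0479% (artery-like against the others) of all genes. It had 1270 and 1952 CPM in artery-like wells, 228 and 222 CPM in capillary-like and 126 and 298 CPM in vein-like wells (artery-like against the mean of the others 2.88, SE 0.35, edgeR adjusted p = 0.0208). Both artery-like values lay above the other 4. Of the 20 tested between kinds of wells, 0 passed. At an unadjusted p under 0.05 edgeR gave 1, 5, 3, 2 and 2 of the 16 in the class comparisons. These are 6.25%, 31.2%, 18.8%, 12.5% and 12.5%, with 4.52%, 6.15%, 5.2%, 3.66% and 6.13% of all genes. Against mural and lymphatic wells it gave 5 (25%) and 2 (10%) of the 20, with 14.1% and 9.24% of all genes. The median log2 fold changes there were 2.54 and 0.84, with 0.84 and 0.56 over all genes.

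Of 29 genes that use transported amino acids, 25 were tested between classes with 0 calls and 27 between kinds of wells. There 1 was called, against mural wells, where 1.94% of all genes were. At an unadjusted p under 0.05 edgeR gave 2, 3, 3, 2 and 2 in the class comparisons (8% or 12%, with 3.66% to 6.15% of all genes). Against mural and lymphatic wells it gave 5 (18.5%) and 4 (14.8%), with 14.1% and 9.24% of all genes. *Nos3*, the endothelial nitric oxide synthase that uses arginine, had 173 and 210 CPM in BECs and 15.3 and 0.894 CPM in mural wells (log2 fold change 5.88, SE 1.11, edgeR adjusted p = 2.46e-05). By class it had 183 and 338 CPM in artery-like, 262 and 349 CPM in capillary-like and 127 and 208 CPM in vein-like wells. Of the 34 dissociation response genes, 0 passed between classes and 17 (50%) had an unadjusted p under 0.05 for any difference, with 4.52% of all genes. In BECs 3 were called higher than in mural wells (*Ier3*, *Ier2* and *Fos*, by 2.24, 2.03 and 0.88 on the log2 scale) and 4 higher than in lymphatic wells (*Nr4a1*, *Egr1*, *Zfp36* and *Fos*, by 2.38, 1.41, 1.18 and 1.10), where 1.94% and 1.07% of all genes were called in these comparisons in either direction. Their part in the higher level of *Slc3a2* in BECs was not tested.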

How the data were processed

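Smart-seq2 libraries of single wells were sequenced as single 50-bp reads. Per the methods and the submitters' processing notes, the authors used TopHat2 2.1.1 for alignment to mm10 (GRCm38), SAMtools 0.1.18 to take out duplicates and Subread 1.4.6-p5 for counting, and deposited raw counts for each gene and well. Duplicate removal without molecular identifiers limits the counts of short, abundant genes (no value exceeded 4654). The annotation release and strand setting are not given in the sources used here. Of 46517 gene identifiers, 46005 were matched to symbols through GENCODE vM21, and 92 spike-in rows stayed out of library sizes and tests. No 2 of the 1536 wells held the same counts.

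Wells were kept with at least 600 reads, 500 to 8000 genes, a read of 2 of 3 endothelial genes and under 100 CPM of 5 other genes. Doublets were not called. Size factors and 1000 variable protein-coding genes (without members, listed genes, mitochondrial and ribosomal genes) came from scran 1.30.0. Values were scaled within replicates, and 15 principal components and 15 neighbours were clustered with leidenalg 0.10.2 at the lowest resolution with 3 classes in both replicates (0.8). A cluster was named with at least 5 markers of a type that were 1.25 times higher, and at 10 CPM or more, in each replicate. They had to be at least 2 times as many as those of the next type. It also needed 10 wells and, among its leading genes by fold, no more markers of any other type than of its own. Clusters of low depth needed a marker of their own type among these genes. This rule was tightened after trial clusterings and before members' values were looked at. Counts were summed per replicate and class (or kind of well), and tested with edgeR 4.0.16 (TMM, quasi-likelihood, replicate block since classes of a replicate share plates, 2 residual degrees of freedom, Benjamini-Hochberg over all genes). The prior degrees of freedom were 8.51 in the class fit and infinite in the fit of kinds of wells. In the latter a gene's own spread between replicates had no weight in its quasi-likelihood dispersion. Standard errors were taken from the fold change and its F value. Alternatives used DESeq2 1.42.0, limma 3.58.1 on log2(mean CPM + 1), other filters, single plates and single replicates. R 4.3.3 and Python 3.11.15 were used, and the tests were tried on simulated data. With the median spread as measured, artery-like wells against the others called 0, 1, 17 and 23 of 50 genes changed 4-, 16-, 64- and 256-fold. BECs against mural wells called 0, 0, 0 and 1 of 50. With a dispersion of 0.1 the 2 tests called 47 and 37 of 50 genes changed 4-fold. With pools not stated to be separate, p-values measure the spread between these samples only.

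The members and all gene lists were chosen with earlier results of these data known. Named are all members, in full the expressed ones, those past the threshold and the partners of heavy chains, and from other lists at most 4 genes by size of change among those past the threshold, or the 2 highest. *Fos* and *Zfp36* (dissociation response) are named beyond this rule. They, *Asns* and the fold changes of members short of the threshold were chosen after their values were seen.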

Additional observations from a re-analysis of the deposited data

How the results depend on the processing

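The count of expressed members was 11, and 9 with 20 CPM, 13 without a required share and 6 with a share of 20% of wells. It was 11 without replicate 1 and 14 without replicate 2. The 7 counts of called members moved as follows. Without the filter on low counts, 1 member (*Slc1a5*) was called for any class difference, artery-like against vein-like, artery-like against the others and vein-like against the others (0.537%, 0.353%, 0.349% and 0.361% of all genes), and DESeq2 called 1 for artery-like against vein-like, 2 (*Slc1a5* and *Slc7a5*) for artery-like and 1 for vein-like wells against the others, where edgeR called 0. Against mural wells the count of 4 went to 0 without the replicate block, with limma and on plate B, and to 1 on plate A and with the limit of 10 CPM. Against lymphatic wells the count of 0 went to 1 with DESeq2 and in named wells alone (*Slc38a4*; the named wells were an alternative chosen after seeing the data), on wells thinned to 20000 reads (*Slc3a2*) and with the limit of 300 CPM (*Slc1a5*). *Slc43a3* in artery-like against vein-like wells turned to -1.82 (SE 1.52) on plate A alone and -0.030 (SE 2.06) with the limit of 10 CPM. At that limit replicate 1 holds 18 wells, 1 of them artery-like. The causes were not tested. The other 10 fold changes followed through the alternatives kept their sign in all of them, *Slc1a5* in artery-like against vein-like wells between -7.38 and -1.33, *Slc3a2* in capillary-like wells between -1.50 and -0.14, and *Slc3a2* against mural wells between 2.06 and 2.95. With single replicates no test was run. With wells thinned to 20000 reads, 9 members were expressed, without *Slc7a1* and *Slc7a6os*.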
